A study of Mus musculus with 3 samples.

Results

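Sub-cluster 0 is the most numerous of the 5 groups, numbered 0 to 4, into which the authors divided the oligodendrocyte nuclei of the mouse lumbar spinal cord. Its members are the nuclei that the deposited annotation calls oligodendrocyte and assigns to sub-cluster 0. They number 711 of the 2165 oligodendrocyte nuclei and of the 14662 nuclei of all types. Sub-clusters 1, 2, 3 and 4 hold 693, 576, 132 and 53 nuclei. The nuclei came from 12 mice of 90 days, of which 6 were SOD1G93A and 6 wild-type (WT), with 3 of each sex per genotype. SOD1G93A mice (B6.Cg-Tg(SOD1*G93A)1Gur/J) carry many copies of a human SOD1 gene with the G93A mutation of familial ALS, in every cell and under its own promoter, and the WT mice were C57BL/6J littermates. Nuclei were tagged per mouse with hashtag antibodies and run in 3 pools, A, B and C, each with 1 female and 1 male mouse of either genotype, and a mouse is named here by genotype, sex and pool (WT female B). Of the 711 nuclei, 367 were from the 6 WT mice and 344 from the 6 SOD1G93A mice.

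Oligodendrocytes make the myelin sheaths of the central nervous system and also feed the axons they wrap. They arise from oligodendrocyte progenitor cells (OPCs), which pass through a committed stage marked by Gpr17, Bmp4 and Neu4, then through newly formed and myelin-forming stages, and end as mature cells of several kinds. In the spinal cord the mature cells differ by place, with a kind rich in Klk6 that is typical of white matter and a kind rich in Ptgds, Il33 and Grm3 that is typical of grey matter.

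Values are unique molecular identifiers (UMIs), each standing for 1 captured RNA molecule. They were summed over the sub-cluster 0 nuclei of each mouse, and levels are given as counts per 1000000 UMIs of that sum (CPM). The 12 sums ranged from 43562 to 647571 UMIs and the nuclei behind them from 9, in SOD1G93A female C, to 155, in SOD1G93A male B. These 2 mice stood apart in size. A nucleus of sub-cluster 0 held a median of 4454 UMIs, fewer than in sub-clusters 1 to 4, where medians ran from 5075.5 to 10569. After each nucleus was thinned to 2000 UMIs, which left out 40 nuclei of sub-cluster 0, the median number of detected genes was 1107, within the 1054 to 1183 of the other sub-clusters. In the 3 pools 15 cell barcodes were used more than once, and 2 nuclei of sub-cluster 0 had such a barcode.

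The nuclei carried the markers of their label. Mobp, a gene of compact central myelin, lay between 1196 and 1750 CPM in the 12 mice, with a mean of 1422 in sub-cluster 0, 1284 in sub-cluster 1, 994 in sub-cluster 2, 668 in sub-cluster 3 and 648 in sub-cluster 4. Mbp, the basic protein that holds the myelin layers together, lay between 2639 and 3636 CPM with a mean of 3211. Mapping by the authors to a published spinal cord reference placed 709 of the 711 nuclei (99.7%) among oligodendrocytes, the same share as in sub-cluster 1 (99.7%), with 81.9% in sub-cluster 2 and 23.5% in sub-cluster 3. Markers of other types were below the level of their own type. The 6 neuron markers summed to 971.9 CPM, against 618 in sub-cluster 1, 2811 in sub-cluster 2 and 6847 in neurons, and the 6 astrocyte markers to 521.8, against 274 in sub-cluster 1, 3446 in sub-cluster 3 and 8002 in astrocytes. The 6 microglia markers summed to 77.2 CPM in sub-cluster 0, and to no more than 239 in microglia themselves. Summed OPC markers stood at 281.5 CPM in sub-cluster 0 and at 7931 in OPCs, and endothelial markers at 18.4 and 6682. Each marker of these lists had at least 1 UMI in sub-cluster 0. Only 1 nucleus (0.141%) held as many neuron-marker UMIs as the median neuron, 93, while 53 nuclei of sub-cluster 2 did. These counts are not scaled for depth. The deepest nucleus held 24602 UMIs in sub-cluster 0 and 183724 in sub-cluster 2, so the counts do not compare neuronal RNA between the sub-clusters.

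Sub-clusters were made from the expression of the same nuclei, so the levels that follow describe them and were not tested. By stage markers, sub-cluster 0 was mature. Bmp4, a secreted differentiation signal of committed cells, had 0 UMIs in sub-cluster 0, which allows up to 3 UMIs by counting error, and stood at 78.6 CPM in sub-cluster 4. Gpr17, a receptor of the committed stage, was at 1.101 CPM against 74.2 in sub-cluster 4, and Neu4, a sialidase of the same stage, at 0.577 against 80.4. Itpr2 (19.0 against 1130 CPM), the transcription factor Tcf7l2 (47.3 against 2398) and the matrix gene Tnr (73.3 against 6387) were likewise low where sub-cluster 4 was high. Enpp6, an enzyme that is often used to mark new oligodendrocytes, was an exception, with 419.5 ± 89.5 CPM (SD, n = 12) in sub-cluster 0, 511 in sub-cluster 1, 517 in sub-cluster 4 and 127 in sub-cluster 2. Its level did not follow the order of the stages.

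Many myelin genes were high in sub-cluster 0, but not all. Mobp (1422 against 1034 CPM in sub-clusters 1 to 4 summed), Mog, a surface protein of myelin (790.7 against 532), and Cntn2, an adhesion molecule next to the node of Ranvier (233.9 against 144.5), were higher in sub-cluster 0 in 12 of 12 mice. In the same list Opalin (24.8 against 77.0), Nfasc (516.9 against 751.1) and Tspan2 (181.2 against 213.6) were lower, in 12, 11 and 9 of 12 mice. Omg and Gjb1 stood at only 21.7 and 24.3 CPM in sub-cluster 0. Mbp was lower in sub-cluster 0 than in sub-cluster 1 (3211 against 3650 CPM, lower in 10 of 12 mice) and higher than in sub-cluster 2 (2131, in 12 of 12). Of 30 stage and marker genes with at least 50 CPM, 15 were higher in sub-cluster 0 than in the other 4 together.

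**Figure D1:**
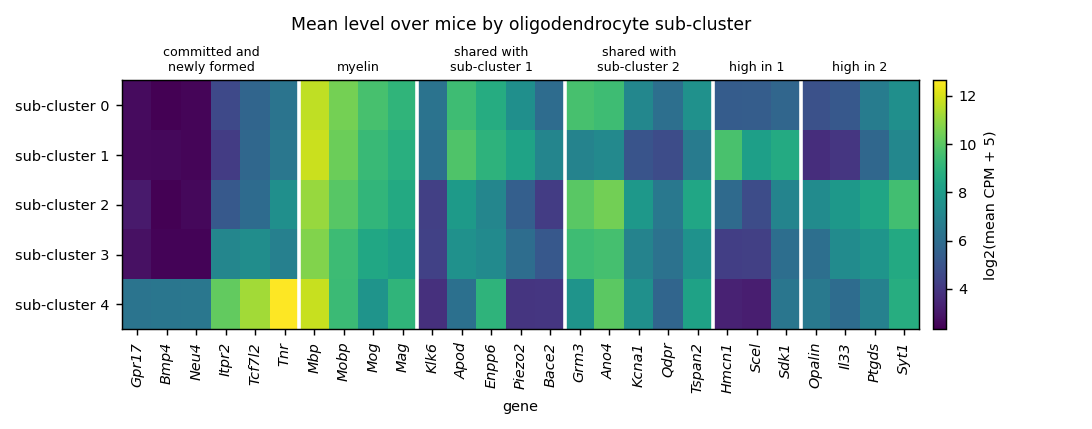
Level of genes, as the log2 of the mean CPM over mice plus 5, in the 5 sub-clusters of oligodendrocytes, with genes grouped by stage or by the sub-cluster that shares them. Sub-cluster 0 is dark for the genes of the committed stage, light for myelin genes, and shares Klk6 and Apod with sub-cluster 1 and Grm3 and Ano4 with sub-cluster 2.

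Genes of the mature kinds were shared in part with sub-cluster 1 and in part with sub-cluster 2. Klk6, a secreted protease of white-matter oligodendrocytes, stood at 71.1 ± 21.5 CPM (SD, n = 12) in sub-cluster 0 and 65.6 in sub-cluster 1, and at 14.6 in sub-cluster 2, below sub-cluster 0 in 12 of 12 mice. Apod, a lipid-carrying protein, was at 694, 889.9 and 244 CPM in sub-clusters 0, 1 and 2, lower than in sub-cluster 1 in 10 of 12 mice and higher than in sub-cluster 2 in 12 of 12. Hopx and Anxa5, the other genes of the Klk6 list, were lower than in sub-cluster 1 in 10 of 12 mice each (26.2 against 42.2 and 20.8 against 40.2 CPM).

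Grm3, a metabotropic glutamate receptor, went the other way. It had 787.5 ± 199 CPM in sub-cluster 0, 119 in sub-cluster 1 and 1010 in sub-cluster 2, a log2 ratio of 2.71 over sub-cluster 1 with 12 of 12 mice higher. Ano4, a gene of the anoctamin membrane proteins (685.7, 141 and 1385 CPM in sub-clusters 0, 1 and 2), and the potassium channel Kcna1 (131, 27.3 and 222.6 CPM) shared this order, as did Qdpr, which recycles the cofactor tetrahydrobiopterin (62.5, 21.7 and 82.8 CPM). Of the other genes of the Ptgds list, which also holds Apod, Grm3 and Qdpr, Il33, Ptgds and Jph4 had this order too. Il33, an alarmin cytokine, was at 30.4 CPM, against 10.5 in sub-cluster 1 (higher in 11 of 12 mice) and 223.9 in sub-cluster 2 (lower in 12 of 12). Ptgds, a prostaglandin synthase, was at 96.2 CPM, against 49.8 in sub-cluster 1 (higher in 11 of 12) and 332 in sub-cluster 2 (lower in 11 of 12). Car2, a carbonic anhydrase, was higher in sub-cluster 0 than in either, with 357 CPM against 168 in sub-cluster 1 (12 of 12 mice) and 278 in sub-cluster 2 (11 of 12). S100b, a calcium-binding protein, was at 81.9 CPM against 71.4 in sub-cluster 1 and 31.9 in sub-cluster 2. Jph4 was at 18.1, 7.07 and 22.8 CPM in sub-clusters 0, 1 and 2, and Trf was under 1 CPM in each. Opalin, a myelin glycoprotein of the myelin-forming list, was at 24.8 CPM against 154 in sub-cluster 2, lower in 12 of 12 mice.

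Few genes stood higher in sub-cluster 0 than everywhere else. Against sub-clusters 1 to 4 together, 5 of 3671 genes with at least 50 CPM were higher by a log2 ratio of 1 or more in at least 11 mice, and 404 were lower. The 5 were Gm11808, Gm32005, Rtp4, which helps receptors to reach the cell surface (88.3 against 35.6 CPM), Tmsb4x, an actin-binding peptide (128 against 61.3), and Nefl, a neurofilament subunit (124 against 55.0). Just inside that limit was Nefl with a log2 ratio of 1.01, and just outside was Masp1, a protease of the lectin pathway of complement, with 0.98. Fth1, the heavy chain of the iron store ferritin (751.2 against 392.4 CPM), and Anln, a scaffold protein of myelin septins (809 against 426), were higher in 12 of 12 mice by smaller ratios. Sub-cluster 0 had the lowest median UMIs and a median mitochondrial percent of 0.31, against 0.16 to 0.298 in the others. The part of RNA from other cells in these levels was not tested. Among the genes that were lower, 9630013A20Rik was at 11.2 CPM and reached 5427 in sub-cluster 4, and Trpm3, a cation channel, was at 217.8 CPM and reached 6020 in sub-cluster 3.

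Against sub-cluster 1 alone, 53 of 3487 genes were higher and 70 lower by the same rule. Hmcn1, a large matrix protein, separated the 2 most sharply, with 35.3 CPM in sub-cluster 0 and 804 in sub-cluster 1, lower in 12 of 12 mice. Scel, a protein of cornified envelopes (36.1 against 282 CPM), and Sdk1, a synaptic adhesion molecule (47.4 against 388), were also lower in 12 of 12. Against sub-cluster 2, 113 of 3774 genes were higher and 531 lower. Piezo2, a channel opened by mechanical force, stood at 170.6 CPM in sub-cluster 0, 38.9 in sub-cluster 2 and 311.9 in sub-cluster 1. Bace2, a protease related to the amyloid-cutting Bace1, kept the same order with 57.6, 12.9 and 123 CPM. Synpr (23.6 against 283 CPM) and Kirrel3 (172.8 against 1513), both known from synapses, were lower than in sub-cluster 2, where neuron markers were also higher.

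The 711 nuclei were not uniform. In the authors' clusters of all nuclei, 591 (83.1%) fell in cluster 5, 88 (12.4%) in cluster 7, which holds 75.0% of sub-cluster 2, and 28 (3.94%) in cluster 3, which holds 99.1% of sub-cluster 1. Summed over mice, the 88 nuclei of cluster 7 had 1951 CPM of Grm3 (95% Poisson interval 1799 to 2113) while cluster 5 had 736 (705.5 to 767.6) and cluster 3 had 286 (207 to 386). Piezo2 ran in the opposite direction, with 58.0 CPM (34.4 to 91.6) in cluster 7, 176 (161 to 192) in cluster 5 and 299.6 (218.5 to 401) in cluster 3. Scel had 159.8 CPM in cluster 3 and 34.8 in cluster 5. Not every gene followed. Sdk1, high in sub-cluster 1, had 6.66 CPM (0.169 to 37.1) in cluster 3 and 42.2 (35.1 to 50.3) in cluster 5, and the intervals of Ptgds and Qdpr overlapped among the 3 clusters. These intervals cover counting error only, and 35 of the 88 nuclei came from SOD1G93A male B and 14 of the 28 from SOD1G93A female B. Without SOD1G93A male B the other 53 nuclei of cluster 7 had 1698 CPM of Grm3 (1515 to 1897) and 65.3 of Piezo2 (33.8 to 114). Without SOD1G93A female B the other 14 nuclei of cluster 3 had 404 CPM of Grm3 (268.5 to 584), 115.5 of Scel (49.9 to 227.5) and 202 of Piezo2 (110.5 to 339), and this last interval held the value of cluster 5.

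The share of oligodendrocytes in sub-cluster 0 did not pass a test by genotype. In the WT mice it was lowest at 22.7%, with a median of 32.9% and a highest value of 35.04%. In the SOD1G93A mice the lowest was 20.5%, the median 36.9% and the highest 41.1%. The groups overlapped over most of their range, and the lowest SOD1G93A value came from the mouse with 9 nuclei. Means were 30.6% ± 5.36 (SD, n = 6) in WT and 33.4% ± 8.54 in SOD1G93A mice, a log2 fold change of 0.17 (edgeR quasi-likelihood test, FDR = 0.627; two-sided exact permutation test over mice, p = 0.494). Without that mouse the SOD1G93A mean was 36.0% ± 6.37 (n = 5, exact permutation p = 0.16). The log2 fold change of 0.17 ranged from 0.09 to 0.29 with 1 mouse left out. Of all nuclei, sub-cluster 0 was 4.24% ± 1.26 in WT and 5.57% ± 3.39 in SOD1G93A mice (log2 fold change 0.35, edgeR FDR = 0.712; exact permutation p = 0.411), and SOD1G93A male B had the highest share, 11%. This log2 fold change was 0.09 without that mouse (edgeR FDR = 0.81), and leaving out SOD1G93A female A turned it to −0.04 (edgeR FDR = 0.915). Of the 5 sub-clusters, only the share of sub-cluster 3 passed among oligodendrocytes, with means of 8.44% (WT) and 3.92% (SOD1G93A) and an edgeR FDR of 0.0259. Of all nuclei that share did not pass (edgeR FDR = 0.0708). The part that genotype differences in the genes separating the sub-clusters have in these shares was not tested.

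**Figure D2:**
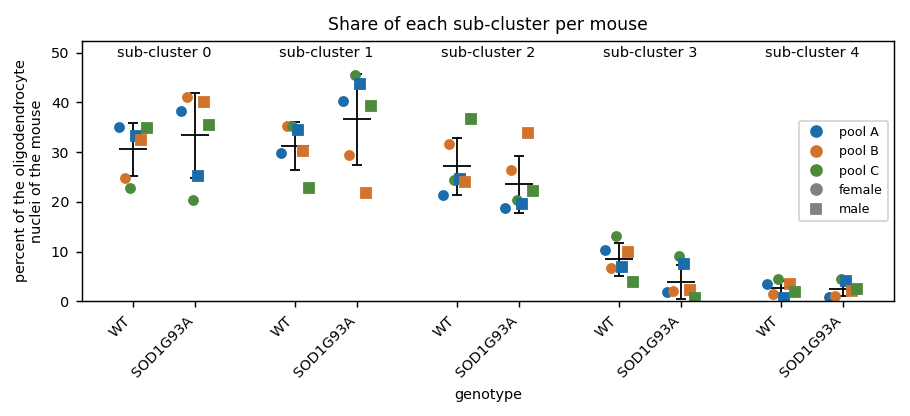
Percent of the oligodendrocyte nuclei of each mouse in each sub-cluster, by genotype, with pool as colour, sex as shape, and the mean and SD over 6 mice as bars. In sub-cluster 0 the WT mice lie between 22.7 and 35.04% and the SOD1G93A mice between 20.5 and 41.1%.

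The question put to sub-cluster 0 was which of its genes differ between SOD1G93A and WT mice at this peri-symptomatic age. Differences were fitted with limma on the sums of the 12 mice, with pool as a block, and genes with a false discovery rate (FDR) under 0.1 are called. CPM values of genes by mouse or genotype are scaled from here on with the factors of that fit. Summed markers and the levels of cell types and sub-clusters are unscaled. A pair is the SOD1G93A and the WT mouse of 1 sex and pool.

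Sod1, the mouse counterpart of the human transgene, came first. In WT females of pools A, B and C it stood at 452, 85.0 and 71.0 CPM, and in WT males at 199.9, 81.2 and 108. SOD1G93A females had 396, 209 and 645.6 CPM and males 582, 163.5 and 166. It was higher in the SOD1G93A mouse in 5 of 6 pairs, and the exception was the pair of females in pool A, where the WT mouse was the highest of its group. The log2 fold change was 1.05 (SE 0.25), which limma did not call (FDR = 0.333), while edgeR (FDR = 0.0761) and DESeq2 (FDR = 0.0301) did. limma called it without WT female A (1.33, FDR = 0.0173), SOD1G93A female A (1.42, FDR = 0.00508) or SOD1G93A female C (0.89, FDR = 0.0273), and in eBayes without the robust option (FDR = 0.0332). Sod1 was also called in the fit without the filter on low counts (FDR = 6.71e-05). That fit called 1714 genes by sex, against 6 with the filter, so its FDR values are not relied on. In the main settings, the other sub-clusters were as follows. Sod1 was called in sub-cluster 2 (1.75, FDR = 0.000195) and in sub-clusters 1 to 4 summed (1.25, FDR = 0.00103), but not in sub-cluster 1 (0.52, FDR = 0.3815) or sub-cluster 3 (1.498, FDR = 0.987). Whether reads of the human transgene were counted as mouse Sod1 was not tested, so these values do not check the genotype labels.

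Of 4477 genes tested in sub-cluster 0, limma called 8 (0.179% of the genes tested), 4 higher (0.0893%) and 4 lower (0.0893%) in SOD1G93A mice. The higher genes were Piezo2, Stat3, C4b and Aldh1l2, and the lower genes Opcml, Lingo2, Pcdh11x and Ebf1. Each of the 8 moved in its direction in 6 of 6 pairs and on average in each of the 3 pools. The genes were called from these same mice, so this is not read as separate support for a call. At an unadjusted p under 0.05 there were 243 of the 4477 genes, near the number that this threshold gives without any difference. The median log2 fold change of all genes was −0.01. In 10 genes (0.223%) the 2 groups of 6 mice did not overlap, and 5 of the 8 called genes were among them. In an exact permutation test such a split has p = 0.00216, so about that share of genes would show it without any difference. The lack of overlap is therefore not read as support for a call.

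**Figure D3:**
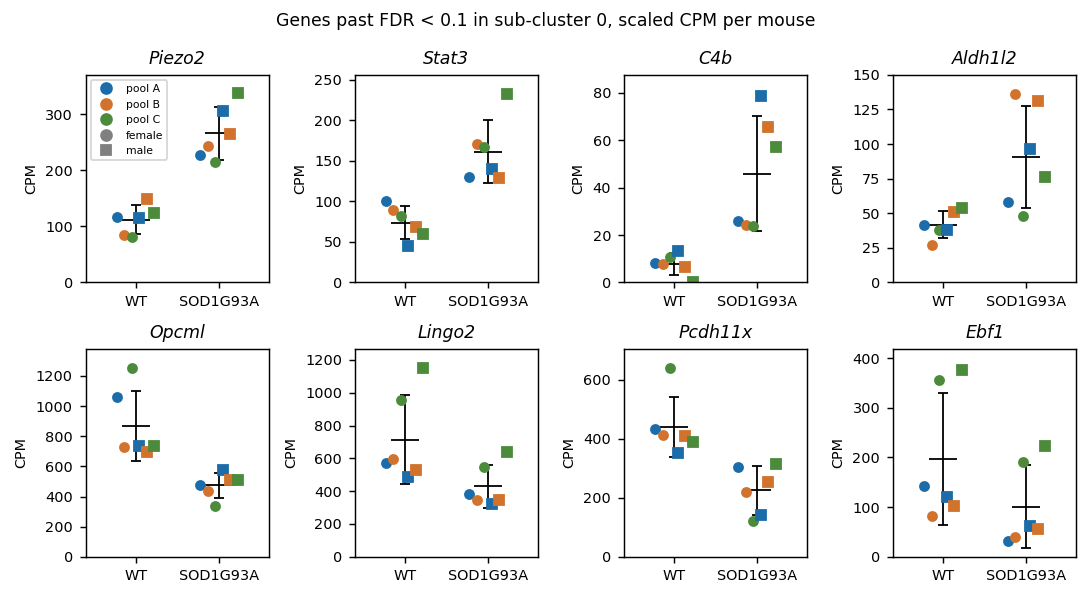
Scaled CPM of the 8 called genes in each mouse, by genotype, with pool as colour, sex as shape, and the mean and SD over 6 mice as bars. Piezo2, Stat3, C4b, Opcml and Pcdh11x do not overlap between genotypes, and in Lingo2 and Ebf1 the mice of pool C are the highest of both groups.

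Piezo2 rose. In WT mice its lowest, median and highest values were 81.9, 116 and 149.6 CPM, and in SOD1G93A mice 215, 254 and 337. Every SOD1G93A mouse was above every WT mouse. The means were 112 ± 25.4 and 266 ± 47.5 (SD, n = 6 each), a log2 fold change of 1.27 (SE 0.17, limma FDR = 0.000138), and it was 1.36 in females and 1.17 in males.

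Stat3 encodes the transcription factor that Janus kinases activate after cytokines of the IL-6 family bind their receptors. Its lowest, median and highest values were 44.4, 75.2 and 100.4 CPM in WT and 129, 154 and 233 CPM in SOD1G93A mice. The groups did not overlap here either. The mean went from 73.9 ± 20.5 to 162 ± 39.2 CPM (log2 fold change 1.15, SE 0.21, limma FDR = 0.00938). It was 0.90 in females and 1.40 in males.

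C4b encodes complement component 4, which is cut by the C1 complex and tags surfaces for removal. It rested on few molecules, 14 UMIs in WT and 78 in SOD1G93A mice. WT mice had 0, 8.05 and 13.3 CPM (lowest, median, highest) and SOD1G93A mice 23.9, 41.5 and 78.8, without overlap. The lowest SOD1G93A value came from 1 UMI, in SOD1G93A female C, and the highest WT value from 6 UMIs, in WT male A. SOD1G93A females A and B had 4 and 5 UMIs. The lack of overlap, and the direction of the pair with WT female C (2 UMIs), thus rested on 1 UMI, within counting error. The 3 SOD1G93A males, from 57.0 to 78.8 CPM, were above the 3 SOD1G93A females, from 23.9 to 26.0. C4b passed the filter on low counts (43.5 CPM in at least 3 mice) only through these 3 males, the group in which it was highest, so its place among the tested genes was not independent of the difference. The log2 fold change was 2.32 (SE 0.43, limma FDR = 0.00938), 1.29 in females and 3.36 in males, and the difference between the sexes of 2.08 did not pass (limma FDR = 0.998). Without the filter the log2 fold change was 2.24 (limma FDR = 0.00117), but that fit called 1714 genes by sex, so this FDR is not relied on. In unscaled CPM, C4b was at 24.2 in sub-cluster 0 and 27.4 in astrocytes. Among other types it was at 15.4 in ependymal cells, 14.4 in fibroblasts, 11.1 in Schwann and meningeal cells and 9.92 in microglia. It was lowest in neurons (1.55), endothelial cells (1.65), OPCs (2.57) and motor neurons (3.47). The part of free RNA in the C4b value was not tested. The call was lost when any 1 mouse other than SOD1G93A female A was left out (FDR up to 0.526, log2 fold change 1.99 to 2.44). C4a, a near-identical copy, had no row in the counts used here, so C4b is uncertain to the extent that the copies share reads.

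Aldh1l2, a mitochondrial enzyme of folate metabolism, stood at 27.1, 40.0 and 53.9 CPM in WT and 47.8, 86.1 and 136 CPM in SOD1G93A mice. The lowest SOD1G93A mouse fell within the WT range. All 6 SOD1G93A mice but only 2 WT mice reached the level of the filter on low counts, which asked for 3, so Aldh1l2 too was tested only because of the group in which it was higher. Its mean rose from 41.7 ± 9.82 to 90.9 ± 36.9 CPM (log2 fold change 1.36, SE 0.27, limma FDR = 0.0188). In the fit without the filter, which called 1714 genes by sex, the log2 fold change was 1.24 (FDR = 0.0491), and this FDR is not relied on. With the filter, Aldh1l2 did not pass without WT female B (FDR = 0.148) or SOD1G93A female B (FDR = 0.803), nor with DESeq2 (FDR = 0.181).

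Of the 4 genes that fell, Opcml and Lingo2 encode cell-surface proteins with immunoglobulin domains, Pcdh11x a protocadherin, and Ebf1 a transcription factor. For Opcml, the lowest, median and highest WT values were 692, 738 and 1256 CPM, and the SOD1G93A values 335, 493.5 and 573. Every SOD1G93A mouse was below every WT mouse. The mean fell from 869.5 ± 233 to 473.5 ± 82.3 CPM (log2 fold change −0.79, SE 0.12, limma FDR = 0.00149). It was −1.15 in females and −0.43 in males, and that difference of 0.72 did not pass (limma FDR = 0.998).

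Pcdh11x stood at 351, 412 and 639 CPM in WT and at 119.6, 236 and 313 CPM in SOD1G93A mice. The groups did not overlap, and WT female C was far above the other WT mice. The log2 fold change was −0.87 (SE 0.17, limma FDR = 0.0243). The call was lost without that mouse (FDR = 0.105), without WT male A (0.124) or WT male B (0.138), and without SOD1G93A female B (0.526).

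The calls of Lingo2 and Ebf1 depended on a few nuclei of high UMI count. UMIs of Lingo2 were found in 542 of the 711 nuclei and of Ebf1 in 185. Lingo2 had 486.5, 582 and 1153 CPM in WT and 319, 365 and 636 CPM in SOD1G93A mice (log2 fold change −0.67, SE 0.12, limma FDR = 0.00938). Ebf1 had 81.1, 131 and 377 CPM in WT and 32.5, 59.0 and 223 CPM in SOD1G93A mice (log2 fold change −1.02, SE 0.23, limma FDR = 0.0616). Both overlapped between genotypes and were highest in pool C. Without the 7 nuclei that held over 3 times the median UMIs of sub-cluster 0, the log2 fold change was −0.35 for Lingo2 (limma FDR = 0.944) and −0.51 for Ebf1 (FDR = 0.954). Without the 1 nucleus rich in neuron markers, Ebf1 was at −0.82 (FDR = 0.889), and leaving out any 1 of 8 mice ended its call (FDR up to 0.379). These were WT female C, the 3 WT males, the 3 SOD1G93A females and SOD1G93A male A.

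The values of other cell types beside these genes were as follows. Lingo2 stood at 516 CPM in sub-cluster 0, 1908 in sub-cluster 2 and 4790 in neurons, and Opcml at 603, 1229 and 2359 (unscaled CPM). Opcml was higher still in OPCs (3163 CPM) and in sub-cluster 4 (7233). Pcdh11x stood at 298 CPM in sub-cluster 0, 417 in sub-cluster 1, 388 in sub-cluster 2, 521 in neurons and 561.5 in OPCs. Ebf1 stood at 134 CPM in sub-cluster 0, 778 in sub-cluster 2, 1539 in neurons and 2590 in endothelial cells. Stat3 was at 106.5 CPM in sub-cluster 0 and 47.6 in neurons. The summed neuron markers of sub-cluster 0 averaged 981 ± 363.5 CPM in WT and 963 ± 536 in SOD1G93A mice (exact permutation p = 0.974, adjusted over 13 measures 0.974). Without the SOD1G93A mouse of 9 nuclei, which had 2043 CPM, the other SOD1G93A mice lay between 630 and 896 CPM, within the WT range of 559 to 1381 (mean 747, exact permutation p = 0.212). Of the 6 neuron markers 4 were tested, 0 called by limma or edgeR (limma called 0.179% of all genes tested), with a median log2 fold change of −0.11. The part that neuronal RNA has in the fall of these genes was not tested beyond leaving out those nuclei and that mouse.

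A difference in depth was not detected, with a median of 4342 ± 1334 UMIs per nucleus in WT and 4445 ± 756 in SOD1G93A mice (exact permutation p = 0.911, adjusted 0.974). The summed astrocyte markers were higher in the SOD1G93A mouse in 6 of 6 pairs, with 378 ± 46.0 CPM in WT and 665.5 ± 597 in SOD1G93A mice (exact permutation p = 0.0541, adjusted 0.703). Over the 6 pairs the exact sign-flip test gave p = 0.0312, the smallest it can give (adjusted 0.406). The SOD1G93A mouse of 9 nuclei had 1882 CPM and the other 5 lay between 378 and 461, against 327 to 442 in WT (exact permutation p = 0.108 without it). Of 6 astrocyte markers 4 were tested, all with positive log2 fold changes (median 0.48), 0 called (0.179% of all genes tested were). Since astrocytes carry C4b at a level like that of sub-cluster 0, the part of astrocyte RNA in the C4b value was not tested.

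Without the pool term limma called 3 genes, and with sex and pool as 6 pairs 17 genes, which included all 8. Thinned to at most 3000 UMIs, as 554 of the nuclei needed, the sums gave 3 calls. The number of calls also moved with single mice: it was 35 without WT female B, 16 without WT female A, 5 without WT female C, 5 without WT male A, and 4 without SOD1G93A female B. Piezo2 was called in all 27 of the alternatives tried.

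Other genes that the study names for oligodendrocytes were not called in sub-cluster 0. Pros1, the anticoagulant Protein S that also bridges dying cells to TAM receptors, had a log2 fold change of 1.55 (SE 0.57, limma FDR = 0.822). Only SOD1G93A mice reached the level of the filter for it, and its value without SOD1G93A female A (2.09, FDR = 0.0187) left out the SOD1G93A mouse that had 0 UMIs, so no call is read from it. Igf1r, the receptor of insulin-like growth factor, had 0.18 (limma FDR = 0.95). The next genes by p were Rims1, a presynaptic scaffold (−0.60), and Gpr176, an orphan receptor (−1.13), both at FDR = 0.204.

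Each sub-cluster was then fitted in the same way. limma called 3 of 6245 genes in sub-cluster 1 (0.048%), 1 of 7134 in sub-cluster 2 (0.014%), and 4 of 9932 in sub-clusters 1 to 4 summed (0.0403%). In sub-clusters 3 and 4 it called 0 of 2853 and 0 of 1095, with 133 and 53 genes at an unadjusted p under 0.05. Stat3 was also higher in sub-cluster 1 (0.92, FDR = 0.0388) and in sub-clusters 1 to 4 summed (0.79, FDR = 0.0937). C4b was higher in sub-cluster 1 (2.65, FDR = 0.00248) and in the sum (2.17, FDR = 0.0148), and Aldh1l2 in the sum (0.95, FDR = 0.058). Whether these 2 genes passed the filter of these fits only through SOD1G93A mice was not tested. Their calls here are therefore not read as support for those in sub-cluster 0. A fit over both sums of each mouse tested whether the effects differ. The effect in sub-cluster 0 minus that in the rest was 0.33 (SE 0.24) for Stat3, −0.02 (SE 0.57) for C4b and 0.31 (SE 0.35) for Aldh1l2, none past FDR 0.1.

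Of the 4 genes that fell, Opcml and Ebf1 differed in effect from the sum of sub-clusters 1 to 4. The difference fit called 4 of 7969 genes (0.0502%), with Opcml at −0.96 (SE 0.14, limma FDR = 5.75e-05) and Ebf1 at −1.07 (SE 0.24, FDR = 0.087). Lingo2 (−0.71, FDR = 0.325) and Pcdh11x (−0.53, FDR = 0.94) did not pass. The difference of Lingo2 did pass in 4 of the 12 fits with 1 mouse left out (lowest FDR = 0.000239, limma). The effect of Opcml was −0.79 in sub-cluster 0, −0.43 in sub-cluster 1, −0.14 in sub-cluster 2, 0.05 in sub-cluster 3 and −0.21 in sub-cluster 4, and at 0.15 the sum of the 4 lay above each of them. Against sub-cluster 1 alone or sub-cluster 2 alone the difference for Opcml did not pass (−0.41, FDR = 0.919, and −0.73, FDR = 0.293). Against sub-cluster 1 the fit called 2 of 5510 genes (0.0363%) and against sub-cluster 2 it called 1 of 7012 (0.0143%). Piezo2 differed from sub-cluster 1 (1.02, SE 0.21, FDR = 0.0589), where its own effect was 0.25, but not from the 4 together (0.63, FDR = 0.775). Ebf1 differed from sub-cluster 2 (−1.39, FDR = 0.0167) but did not pass against sub-cluster 1 (−1.64, FDR = 0.326), and its difference from the 4 together was lost (FDR up to 0.386) without WT female C, WT male A, WT male C, SOD1G93A female B, SOD1G93A male A or SOD1G93A male C. The other 2 genes of the difference fit, Lama2 (1.40, FDR = 0.038), a laminin chain, and Rreb1 (2.65, FDR = 0.038), a zinc-finger factor with 36 UMIs in sub-cluster 0, were named after their values were seen. Lama2 was not called in sub-cluster 0 itself (0.39, FDR = 0.91). The part that the mix of sub-clusters 1 to 4 in each mouse has in these differences was not tested. The 4 calls became 1 without WT female C, 2 without WT male C, 7 without WT female A or SOD1G93A female C, 13 without WT female B or WT male B, 15 without SOD1G93A female A and 20 without SOD1G93A male B, and edgeR gave 14.

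**Figure D4:**
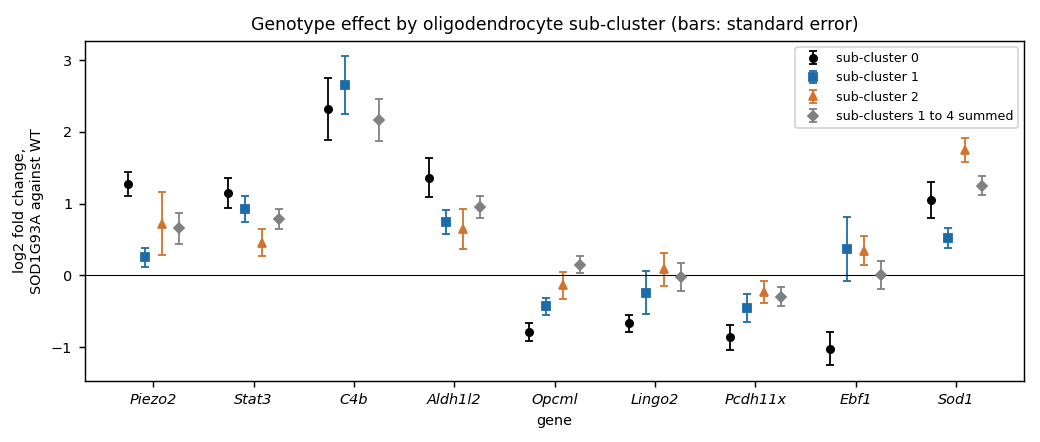
Log2 fold change of SOD1G93A against WT mice with its standard error for the 8 called genes and Sod1, in sub-cluster 0, sub-cluster 1, sub-cluster 2 and sub-clusters 1 to 4 summed. Stat3, C4b and Aldh1l2 are above 0 in each fit shown, whereas Opcml and Ebf1 are below 0 in sub-cluster 0 and near or above 0 in the sum.

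Of the 8 genes, 5 are also among those that separate sub-cluster 0 from sub-cluster 2, which were 113 higher and 335 lower of the 4477 tested. Piezo2 and Aldh1l2, both higher in sub-cluster 0 than in sub-cluster 2, rose in SOD1G93A mice, and Opcml, Lingo2 and Ebf1, all lower, fell. Of the 335 tested genes that were lower in sub-cluster 0 than in sub-cluster 2, these 3 were called lower (0.0893% of all 4477 genes tested were). Of the 335, 263 had a negative and 72 a positive log2 fold change, and the median was −0.25, against −0.01 for all genes. Of the 113 that were higher, 2 were called higher (0.0893% of all genes tested were) and the median was 0.02. Of these 2, Aldh1l2 was tested only because of the group in which it was higher, so nothing is read from its call here. Of genes that separate sub-cluster 0 from sub-cluster 1, limma called 0 of 53 that were higher and 0 of 56 tested that were lower. These lists are too small to tell that from the 0.179% called among all genes tested. Piezo2, lower than in sub-cluster 1 in 12 of 12 mice, lay just outside the limit with a log2 ratio of −0.96. In the nuclei of cluster 5 alone, a restriction chosen after the data had been seen, 5 of the 8 genes were called, and Aldh1l2 (log2 fold change 1.11, FDR = 0.249), Pcdh11x (−0.86, FDR = 0.161) and Ebf1 (−0.99, FDR = 0.247) were not, with values near those of all 711 nuclei.

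Genes of myelin and of maturation were not called. Among 18 central myelin protein genes 14 were tested, 0 called by limma or edgeR, with a median log2 fold change of 0.04. Of all 4477 genes tested 0.179% were called, so a list this small would hold no call at that share. The counts of 0 here and in the lists below are therefore not read as results about their genes. Cldn11, which seals the myelin layers, had the smallest p (0.37, SE 0.15, limma FDR = 0.841), and Mbp was at 0.04 and Mog at −0.08. Of 22 genes of myelin lipid and cholesterol synthesis 14 were tested, with a median of −0.10, and Hmgcs1, an early enzyme of cholesterol synthesis, was at −0.54 (FDR = 0.841). The 6 tested of 12 oligodendrocyte transcription factors had a median of −0.06, with Myrf, the master regulator of myelin genes, at −0.24 (FDR = 0.988).

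No stage gene was called either, and at the 0.179% called among all genes tested, lists this small would hold no call. Of 12 genes of the committed and newly formed stages 4 were tested, and Enpp6 was at 0.33 (limma FDR = 0.836). The OPC list had 3 of 6 tested (median −0.07), the myelin-forming list 3 of 6 (−0.08) and the Ptgds list 6 of 9 (0.02), and the only tested gene of the Klk6 list was Klk6 (0.29, FDR = 0.975).

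In lists built around the called genes no further gene was called. The calls of those genes come from these same data, and 0.179% of all genes tested were called. They are not read as results about the lists. Among 29 genes of the IL-6 family and Stat3 pathway, 9 were tested and only Stat3 was called, with a median of 0.05. The kinase gene Jak2 (0.32, FDR = 0.881) and its target Stat5b (0.45, FDR = 0.91) did not pass, and Il6st, the receptor chain gp130 that IL-6 cytokines share, was at −0.35 (FDR = 0.995). Socs3, the feedback inhibitor that Stat3 induces, had 2 UMIs in sub-cluster 0 and was not tested. Of 17 complement genes and regulators 4 were tested, and beside C4b these were Masp1 (0.70, FDR = 0.822), Cr1l (0.26) and Cd46 (0.16), which did not pass, for a median of 0.48. Since C4b was tested only through the SOD1G93A males, nothing is read from this median. The only tested gene of 5 around Protein S was Pros1.

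In the list of the integrated stress response with serine and folate metabolism, 4 of 26 genes were tested and only Aldh1l2 was called. Aldh1l2 was tested only because of the group in which it was higher, so nothing is read from its call about the list. Psat1, an enzyme of serine synthesis, was at −0.45 (FDR = 0.881). Of 14 genes described in disease-associated oligodendrocytes, only Stat3 and C4b reached the filter on low counts, C4b through the SOD1G93A males alone, so nothing is read from their calls about the list. Serpina3n, B2m, H2-D1 and the other genes of that list were too low to be tested. The median was 0.04 for 4 of 11 genes of lactate and glucose support, −0.10 for 5 of 15 iron and antioxidant genes, 0.10 for 8 of 15 heat-shock genes and −0.19 for 12 of 23 growth factor, BMP and Id genes, with 0 called by limma or edgeR in each. Of 10 immediate early genes 0 passed the filter.

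**Figure D5:**
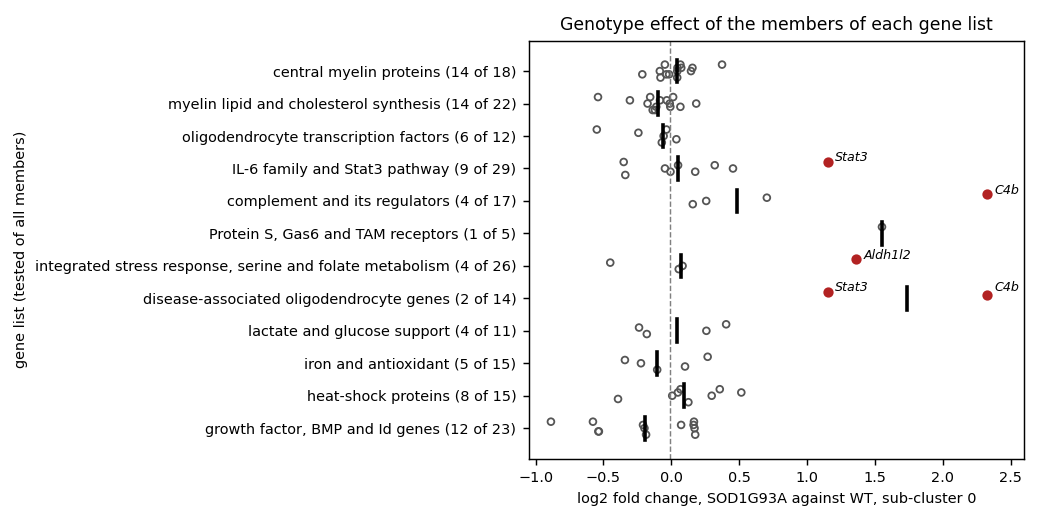
Log2 fold change of SOD1G93A against WT mice in sub-cluster 0 for the tested genes of each list, with called genes filled and named, the median of each list as a black bar, and the median of all tested genes as a dashed line. The tested genes are those that passed the filter on low counts, and most lie between −0.6 and 0.6.

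Between the sexes, genes of X inactivation and of the Y chromosome were called. They were 6 of 4477 genes in limma (0.134%), with Xist and Tsix higher in females and Uty, Kdm5d, Eif2s3y and Ddx3y higher in males. For the difference of the genotype effect between the sexes 0 genes were called by limma or edgeR, with 177 at an unadjusted p under 0.05 in limma.

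In the annotation of the mm10 build the called genes lie far apart. They include Opcml at chr9:27790775-28925410, Stat3 at chr11:100885098-100939540, Lingo2 at chr4:35706647-36951747, C4b at chr17:34728380-34743882, Aldh1l2 at chr10:83487450-83534140, Pcdh11x at chrX:120290259-120910619 and Ebf1 at chr11:44617317-45008091, all protein-coding. RefSeq (GRCm38.p6) gave promoters for 4 of the 8 genes, Stat3, Opcml, Lingo2 and Ebf1. In the 250 bases before the start of each, on both strands, the Stat motif TTCNNNGAA and the motif TGATGNAA of Atf4 and C/EBP dimers had no match, while 7.02% and 3.45% of the 32851 promoters in the table held one, and 5.29% and 2.03% of the 4687 promoters of genes tested in sub-cluster 0. This says only that these letters are not in this window.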

How the data were processed

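Nuclear RNA of the lumbar spinal cord was sequenced on the 10x platform. The deposited counts are UMIs per gene and nucleus, which the authors made with Cell Ranger 3.1 (STAR 2.5.1b) on a pre-mRNA version of mm10, so that intronic reads count. The authors assigned nuclei to mice by hashtag in Seurat 4.0.3, removed nuclei with several or no hashtags, with under 200 genes or over 10% mitochondrial reads, and then removed mitochondrial genes. The deposited percent values are the mitochondrial share of a nucleus. Doublets within a mouse are not marked and no caller was run. Cell types and sub-clusters are those deposited, and the settings of the sub-clustering are not given in the sources used here. The deposited integrated values were not used.

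UMIs were summed per mouse. Genes were filtered with filterByExpr (minimum count 10), scaled with TMMwsp factors and fitted with limma 3.58.1 (R 4.3.3, voom, robust eBayes) with a term per sex and genotype and a term per pool. The genotype effect is the mean over both sexes, with Benjamini-Hochberg adjustment over all genes tested and a threshold of 0.1. The difference fit used 2 sums per mouse with mouse as a term. Shares were tested with edgeR 4.0.16 (threshold 0.05), and depth and marker sums with the two-sided exact permutation test of 6 against 6 mice, whose smallest p is 0.00216. The scripts were tested on simulated counts. The block rests on the pools named in the labels: deviations from group means had a median correlation of 0.13 in the 18 pairs of mice of 1 pool and −0.09 in 36 pairs of different pools and groups. Log2 ratios between sub-clusters used a pseudocount of 5 CPM. Named are every called gene, the genes the study names for oligodendrocytes, up to 4 tested genes of smallest p per list, the stage genes, and the genes of largest and smallest ratio between sub-clusters that kept their direction in at least 11 mice. The members and the lists were chosen with earlier results of these data known. Alternatives were edgeR and DESeq2 1.42.0, other scaling, filters and blocks, subsets of nuclei, thinning, and leaving out each mouse. Some results on single genes are not reported here.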

Additional observations from a re-analysis of the deposited data

Results flagged for a closer look

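Of 58 groups of 6 mice that were examined for a mouse far from the others (Dixon's ratio above its 95% critical value, which chance gives in about 1 of 20 groups), 11 had such a value. Size came first: SOD1G93A male B gave 155 nuclei and 648000 UMIs, where the other SOD1G93A mice gave 9 to 56 nuclei and 43600 to 258000 UMIs. SOD1G93A female C, with 9 nuclei, had summed marker levels of 2040 CPM for neurons (others 630 to 896), 1880 CPM for astrocytes (378 to 461) and 115 CPM for Schwann cells (23.0 to 43.5). SOD1G93A male A had 248 CPM of microglia markers (44.8 to 91.8), and WT female B had 68.8 CPM of endothelial markers (0 to 9.72). In WT male C 21.8% of the sub-cluster 0 nuclei were in cluster 7 (7.37 to 12.5% in the other WT mice), and in SOD1G93A female B 35.9% were in cluster 3 (0 to 4.88%). Of the named genes, Pcdh11x was at 639 CPM in WT female C (others 351 to 435), and Sod1 at 452 CPM in WT female A (others 71 to 200).

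The genotype effect in sub-cluster 0 minus that in sub-clusters 1 to 4 passed in limma's difference fit for Opcml (−0.963), Ebf1 (−1.07), Lama2 (1.40) and Rreb1 (2.65), on the log2 scale. Opcml did not pass against sub-cluster 1 or sub-cluster 2 alone. Sub-cluster 3, at 8.44% of oligodendrocytes in WT and 3.92% in SOD1G93A mice, had 277 CPM of Lama2 and 103 of Rreb1. In sub-cluster 0 these were at 84.1 and 11.1 CPM. The part of this mix in the differences was not tested.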

How the results depend on the processing

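The number of genes called by genotype, 8, became 30 without a filter on low counts (11 higher and 19 lower), 5 with a minimum count of 30, 3 with nuclei thinned to 3000 UMIs, 3 with no replicate block and 17 with a replicate block of sex and pool. Alternatives chosen after the data had been seen gave 5 with cluster 5 nuclei alone, 3 in males alone and 2 in females alone. With 1 mouse left out it ranged from 4 to 35. edgeR called 9 genes, which included the 8, and DESeq2 8, of which 7 were the same. By sex, 1714 genes were called without the filter, and 4 to 21 with 1 mouse left out (21 without WT female B). For the difference of the genotype effect between the sexes the range was 0 to 1 (1 without SOD1G93A female A). Between sub-cluster 0 and the others, 4 calls became 14 with edgeR, 2 against sub-cluster 1 alone, 1 against sub-cluster 2 alone, and 1 to 20 with 1 mouse left out. Causes were not tested. No called result changed sign in any alternative run, and neither share passed in any, although that of all nuclei (log2 fold change 0.35) ranged from −0.04 to 0.60 with 1 mouse left out. Of the called genes, Piezo2 kept its call in 27 of 27 alternatives, Opcml and Stat3 in 26 of 27 each, Lingo2 in 22, Pcdh11x in 18, Ebf1 in 11, Aldh1l2 in 18 of 26 and C4b in 12 of 25. Counting error limits genes such as C4b, at 92 UMIs in all, and the mouse with 9 nuclei.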
